A study of Mus musculus with 2 samples.

Results

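The 9 genes described here, *Isg15*, *Ifit1*, *Ifit3*, *Irf7*, *Bst2*, *Ly6e*, *Ifitm2*, *Ifitm3* and *Ifitm6*, are interferon-stimulated genes, chosen by symbol among the 27998 genes of the count matrix. They were measured in single cells of mouse *MLL-AF9* acute myeloid leukemia (AML) from bone marrow donors that had been given pIpC. The study asked what deleting the histone acetyltransferase gene *Kat2a* does to transcript levels and to their spread between leukemia cells. All donors were *Kat2a* Flox/Flox on a C57Bl/6 background and all received pIpC; those without the transgene, Mx1-Cre -/-, gave the *Kat2a* WT leukemias and those with it, Mx1-Cre+/-, gave the *Kat2a* KO leukemias. Bone marrow (BM) was taken 4 to 6 weeks after pIpC, transduced with an *MLL-AF9* retrovirus that carries a YFP reporter and grown in lethally irradiated recipients. BM from 5 terminal WT leukemias and from 4 terminal KO leukemias was frozen, thawed, pooled by genotype and sorted for live YFP+ cells, and each pool gave 1 library of 10x Genomics 3′ tags aimed at 6000 cells. Single leukemias cannot be told apart within a pool, the ages of the mice are not given in the labels, and the recipients' own cells were separated from the leukemia by the YFP sort alone. Mx1-Cre acts in cells that respond to interferon, so the genotypes differ by a transgene with an interferon-driven promoter as well as by *Kat2a*. No group without pIpC is analysed here, and an effect of pIpC cannot be told apart from any other property that both pools share.

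pIpC (polyinosinic-polycytidylic acid) is a synthetic double-stranded RNA. Cells sense it through Toll-like and RIG-I-like receptors and release type I interferons, which act through the IFNAR receptor, JAK kinases and a transcription factor complex that binds the interferon-stimulated response element (ISRE) in target promoters. The response is usually short-lived, and several of its targets are also held at a steady level by resting myeloid cells. Among the members, *Irf7* encodes a transcription factor that amplifies interferon production, *Isg15* a ubiquitin-like modifier that is conjugated to other proteins, and *Ifit1* and *Ifit3* proteins that bind foreign RNA or its partners. *Bst2* (tetherin) holds budding virus at the cell surface, *Ly6e* encodes a lipid-anchored surface protein, and *Ifitm2*, *Ifitm3* and *Ifitm6* belong to a family of small membrane proteins, of which Ifitm3 is best known for blocking virus entry.

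The members lie at 5 places in the genome (GENCODE M21, GRCm38). *Ifitm2* (ENSMUSG00000060591, chr7:140954837-140955987), *Ifitm3* (ENSMUSG00000025492, chr7:141009586-141010770) and *Ifitm6* (ENSMUSG00000059108, chr7:141015699-141017924) are neighbours on the minus strand, with 4928 bases between *Ifitm3* and *Ifitm6* and 53598 bases between *Ifitm2* and *Ifitm3*. *Irf7* (ENSMUSG00000025498, chr7:141262706-141266481) follows 244781 bases further on. *Ifit3* (ENSMUSG00000074896, chr19:34583531-34588731) and *Ifit1* (ENSMUSG00000034459, chr19:34640871-34650009) lie on the plus strand with 52139 bases between them. *Isg15* (ENSMUSG00000035692) is at chr4:156199424-156200818, *Bst2* (ENSMUSG00000046718) at chr8:71534255-71537456 and *Ly6e* (ENSMUSG00000022587) at chr15:74955051-74959905. All are protein-coding genes. 

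RefSeq promoters (GRCm38.p6, 250 bases before to 50 after the start) were found for 8 of the 9 members, without *Ly6e*. They were searched on both strands for an ISRE-like motif, GAAANNGAAA, in which overlapping matches were each counted. It was present in 6 of the 8, namely *Isg15*, *Ifit1*, *Ifit3*, *Bst2*, *Ifitm2* and *Ifitm3*, and in 3.44% of all 32851 promoters of 300 bases. The *Isg15* promoter held 3 overlapping matches in 1 run of 22 bases that ended 56 bases before the start. *Ifit1* and *Ifit3* each held the same pair of 10-base matches on the opposite strand, closest to the start at 75 bases in *Ifit1* and at 112 bases in *Ifit3*. *Bst2* held 2 overlapping matches ending 114 bases before the start, *Ifitm2* held 1 ending 36 bases before it, and *Ifitm3* held 2 that lay past the start. No match was present in these windows of *Irf7* and *Ifitm6*. The *Ifitm6* window differs from the other 7 in its start, which lies 1032 bases inside the gene as given above and 16 bases from the start of a shorter GENCODE transcript; the longer transcripts' starts were not searched. A second motif known from interferon-responsive promoters, TTCNNNGAA, was present in 3 of the 8 promoters (*Bst2*, *Ifitm3* and *Ifitm6*) and in 8.30% of all. A match is a run of letters and does not show that a factor binds. The promoters of the classical targets *Isg15*, *Ifit1* and *Ifit3* and of the 3 neighbours *Ifitm2*, *Ifitm3* and *Ifitm6* are printed because the results below turn on the contrast between these groups. They read 5′ to 3′ on the strand of the gene, from chr4:156200769-156201068 (minus), chr19:34640639-34640938 (plus), chr19:34583279-34583578 (plus), chr7:140955912-140956211 (minus), chr7:141010695-141010994 (minus) and chr7:141016843-141017142 (minus), and capitals mark the ISRE-like matches.
Isg15: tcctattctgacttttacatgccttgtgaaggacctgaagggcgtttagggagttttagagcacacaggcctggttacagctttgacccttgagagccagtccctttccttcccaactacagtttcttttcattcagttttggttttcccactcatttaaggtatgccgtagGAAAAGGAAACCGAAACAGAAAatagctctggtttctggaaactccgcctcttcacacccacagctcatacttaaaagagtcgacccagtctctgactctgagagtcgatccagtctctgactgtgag
Ifit1: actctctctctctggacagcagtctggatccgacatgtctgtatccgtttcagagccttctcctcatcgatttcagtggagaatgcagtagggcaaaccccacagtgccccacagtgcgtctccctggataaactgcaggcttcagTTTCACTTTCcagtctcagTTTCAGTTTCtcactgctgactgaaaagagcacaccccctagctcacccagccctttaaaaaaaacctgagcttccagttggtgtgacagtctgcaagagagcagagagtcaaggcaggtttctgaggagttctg
Ifit3: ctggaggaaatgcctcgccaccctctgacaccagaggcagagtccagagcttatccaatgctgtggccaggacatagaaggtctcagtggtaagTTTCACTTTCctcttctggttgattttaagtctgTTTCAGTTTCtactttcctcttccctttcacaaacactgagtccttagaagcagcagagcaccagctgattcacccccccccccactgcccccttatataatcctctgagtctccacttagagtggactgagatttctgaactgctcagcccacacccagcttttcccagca
Ifitm2: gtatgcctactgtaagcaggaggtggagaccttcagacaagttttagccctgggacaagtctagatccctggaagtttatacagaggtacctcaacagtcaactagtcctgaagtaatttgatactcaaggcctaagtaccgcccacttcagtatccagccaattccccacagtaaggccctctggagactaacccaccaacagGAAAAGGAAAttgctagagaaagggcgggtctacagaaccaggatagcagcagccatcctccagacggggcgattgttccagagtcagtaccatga
Ifitm3: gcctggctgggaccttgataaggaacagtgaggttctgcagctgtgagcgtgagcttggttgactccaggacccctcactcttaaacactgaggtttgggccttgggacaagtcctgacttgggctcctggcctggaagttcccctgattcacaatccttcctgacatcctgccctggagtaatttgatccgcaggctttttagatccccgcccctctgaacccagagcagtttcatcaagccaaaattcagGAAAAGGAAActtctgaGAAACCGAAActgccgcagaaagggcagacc
Ifitm6: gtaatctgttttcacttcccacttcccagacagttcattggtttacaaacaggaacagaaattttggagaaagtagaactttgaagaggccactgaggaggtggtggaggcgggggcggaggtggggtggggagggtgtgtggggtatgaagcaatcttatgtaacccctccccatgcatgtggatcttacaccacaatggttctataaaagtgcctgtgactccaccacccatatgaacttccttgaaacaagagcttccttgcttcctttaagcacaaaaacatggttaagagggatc

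Cells with at least 500 detected genes were kept. These were 3866 cells with 11669427 UMIs (unique molecular identifiers, each counting 1 captured transcript) for WT and 3545 cells with 7920256 UMIs for KO, with medians of 2588 and 1884 UMIs per cell. Both libraries carried the markers of a granulocyte-monocyte leukemia, with UMIs for 10 of 10 granulocyte markers (7.89% of all UMIs in WT and 7.66% in KO) and 11 of 11 monocyte or macrophage markers (0.124% and 0.114%). Marker lists of several other cell types were higher in the KO-labelled library: conventional dendritic at 115 and 759 CPM (counts per 1e6 UMIs), megakaryocyte at 27.1 and 172 CPM, erythroid at 208 and 551 CPM, mast cell or basophil at 103.5 and 209.7 CPM, and T or NK lymphoid at 198 and 319 CPM. UMIs were found in the KO-labelled library for 6 of 8, 6 of 6, 8 of 8, 5 of 6 and 6 of 7 markers of these lists, with *Xcr1*, *Clec9a*, *Prss34* and *Cd8a* at 0 in both libraries. The level of a list does not show that cells of that type were present. In the clusters described below, the T or NK list was highest in cluster 3 (647 CPM). *Nkg7*, of that list, was among the leading genes of cluster 3, beside *Mpo* and *Elane*. The erythroid list was highest in cluster 1 (1610 CPM), and the megakaryocyte and mast cell lists in cluster 8 (427.5 and 778 CPM). Beyond the step without cluster 12 given with *Bst2*, the part of these lists in the member differences was not tested. The targeted gene did not check the labels, since 3′ tags of *Kat2a* come from the last exon, which the excised allele keeps; its level was 12.2 CPM in the library assigned to WT and 95.8 CPM in the library assigned to KO. For this reason the libraries are called WT-labelled and KO-labelled throughout. *Xist* stood at 275 CPM in the WT-labelled library and 97.2 CPM in the KO-labelled library, and *Eif2s3y* at 12.0 and 90.02 CPM, so that the sexes of the pooled mice cannot be told apart from the genotype. The libraries shared 28 cell barcodes. With 1 library per genotype no test was possible: intervals are 95% intervals of counting error alone, and a difference is called past a fold of 1.5.

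The 9 members spanned a wide range of abundance in these leukemias. *Ifitm2* was at 1203 CPM (1183 to 1223, 14034 UMIs) in the WT-labelled library and at 1185 CPM (1161 to 1209, 9382 UMIs) in the KO-labelled library. *Ifitm6* followed at 743 and 393 CPM, and *Ly6e* at 364 and 514 CPM. CPM values here count transcripts by their 3′ ends and need no correction for transcript length. *Ifitm3* was at 152 and 272 CPM and *Bst2* at 51.6 and 73.7 CPM. The classical early targets of interferon lay far below: *Irf7* had 117 UMIs in the WT-labelled library (10.0 CPM, 8.29 to 12.0) and 87 in the KO-labelled library (10.98 CPM, 8.80 to 13.6), and *Isg15* had 105 UMIs (8.998 CPM, 7.36 to 10.9) and 92 UMIs (11.6 CPM, 9.36 to 14.3). *Ifit3* had 2 UMIs in one library and 6 in the other. *Ifit1* had 0 UMIs in the WT-labelled library, which allows a level of up to 0.257 CPM, and 13 UMIs in the KO-labelled library. *Ifitm2* and *Ifitm6* together therefore made up most of the members' UMIs, with 47.5% and 29.3% in the WT-labelled library and 48.1% and 15.98% in the KO-labelled library. The members' sum was 0.253% of all UMIs in the WT-labelled library and 0.246% in the KO-labelled library.

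**Figure D1:**
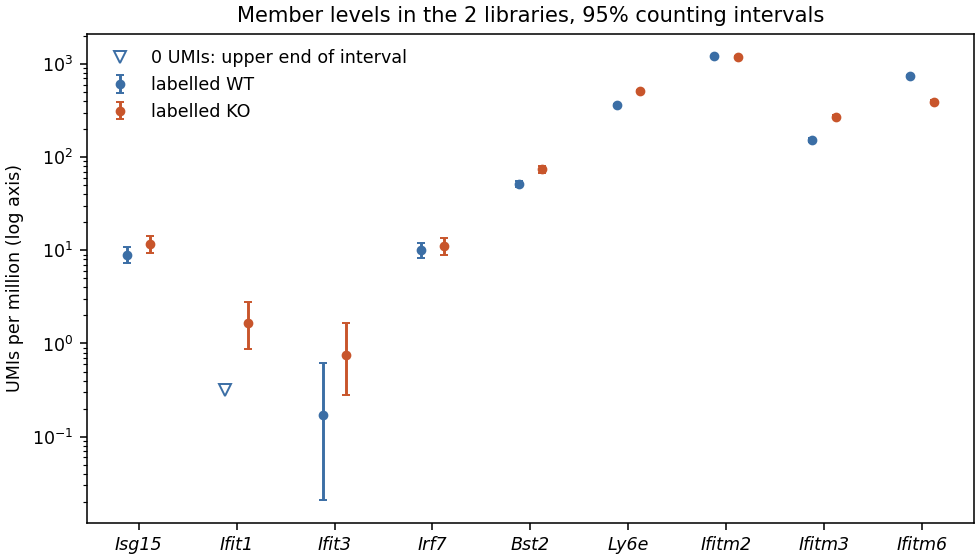
Level of each member in CPM (log axis) in the WT-labelled library (blue) and the KO-labelled library (orange), with 95% counting intervals; the open triangle is the upper end of the interval for *Ifit1*, which had 0 UMIs in the WT-labelled library. *Ifitm3* is at 152 and 272 CPM and its neighbour *Ifitm6* at 743 and 393 CPM.

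Of the 9 members, 7 passed the limit of 50 UMIs over both libraries that was set for ratios between them, the exceptions being *Ifit1* and *Ifit3*. One of these 7, *Ifitm3*, was 1.5-fold or more higher in the KO-labelled library, a step that 6.79% of the 9307 genes tested also reached. One, *Ifitm6*, was 1.5-fold or more lower, as were 11.8% of the genes tested. The ratio of *Ifitm3* was 1.80-fold (log2 0.84, 0.75 to 0.94) and *Ifitm6* was 1.89-fold higher in the WT-labelled library (log2 -0.92, -0.98 to -0.86). *Bst2* (log2 0.52, 0.35 to 0.68) and *Ly6e* (log2 0.50, 0.44 to 0.56) were higher in the KO-labelled library by more than counting error but by less than the fold. For *Isg15* (log2 0.37, -0.05 to 0.79), *Irf7* (log2 0.13, -0.29 to 0.54) and *Ifitm2* (log2 -0.02, -0.06 to 0.02) the intervals included equal levels. The median log2 ratio over the 7 was 0.37, against -0.01 over all genes tested. *Ifit1* in the KO-labelled library, at 1.64 CPM (0.874 to 2.81), lay 6.38-fold above the limit that 0 UMIs allow in the other library (3 UMIs per library). With the counting error of both libraries the log2 ratio of *Ifit1* was bounded only from below, at 2.17. *Ifit3* had a ratio of 4.42-fold with a log2 interval of -0.34 to 5.48. Both calls on the library totals depended on how depth and cell composition were treated: the *Ifitm3* ratio fell to log2 0.57 when each cell was thinned to 1000 UMIs and to 0.21 between cells matched on total UMIs, and the *Ifitm6* ratio was -0.47 when cell clusters were given equal weight in both libraries. *Irf7* turned to log2 -0.61 between cells matched on total UMIs.

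Because depth and cell state both differed between the libraries, the members were next followed within 12 clusters of cells, built without any gene of the interferon lists. Clusters are called by number. Cluster 9 was granulocyte-like (*Camp*, *S100a9*, *Lcn2*, *S100a8*), cluster 3 primary-granule-progenitor-like (*Mpo*, *Elane*, *Ctsg*, *Prtn3*) and cluster 6 was led by mitotic genes (*Cdc20*, *Ccnb1*, *Aurka*). Clusters 7 and 11 were led by *Ltf* and *Mmp9*, cluster 10 by *Ccl6*, *Apoe*, *Ctss* and *Lyz2*, cluster 1 by *BC035044*, *Itm2c* and *Ly86*, and cluster 12 by *H2-DMa* and *H2-DMb1*. Cluster 12 held 71 cells, of which 64 came from the KO-labelled library, and 64170 CPM of its UMIs were conventional dendritic markers. None of these markers was among its 10 leading genes. Leading genes were ranked only among genes detected in 10% or more of kept cells. Markers of so small a cluster can miss that limit.

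*Ifitm6* was the member that varied most over the clusters. Its level over both libraries ran from 57.9 CPM in cluster 8 (led by *Slc25a4* and *Srm*) to 4356 CPM in cluster 11, a 75.2-fold span. Its 2 highest levels, 4356 and 2840 CPM, were in clusters 11 and 7, which are led by genes of maturing granulocytes, and it was among their 10 leading genes although it was kept out of the clustering. Within clusters, *Ifitm6* was lower in the KO-labelled library in 12 of 12, with intervals that excluded equal levels in 10. In cluster 7 it was at 3199 CPM in the WT-labelled library and 2086 CPM in the KO-labelled library (log2 -0.62, -0.73 to -0.51). In cluster 11 it was at 4521 and 3555 CPM, and in cluster 9 at 1408 and 865 CPM. After thinning it was lower in 11 of 11 clusters with 20 or more UMIs (past counting error in 6), and between cells matched on total UMIs in 10 of 11 (past counting error in 9). The ratio passed 1.5-fold in 5 clusters, and in cluster 10, at 825 and 823 CPM, the libraries did not differ beyond counting error. Without the 5 cells of each library and cluster with most *Ifitm6* UMIs, a step chosen after seeing the data, it was lower in 10 of 11 clusters (past counting error in 9). The exception was cluster 1 at log2 0.03. Because 5 cells are a larger share of the smaller library of a cluster, this step did not treat the libraries alike.

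*Ifitm3* had a different distribution. It was highest in cluster 10, at 1219 CPM in the WT-labelled library and 1909 CPM in the KO-labelled library, and lowest in cluster 3, at 37.0 and 53.6 CPM. The library labelled KO was higher in 12 of 12 clusters, past counting error in 11 and past 1.5-fold in 10. The gap was widest in cluster 8 (43.2 and 199 CPM, log2 2.20, 1.81 to 2.62) and cluster 4 (49.9 and 194 CPM, log2 1.96, 1.51 to 2.44), and narrowest in cluster 7 (239 and 325 CPM, log2 0.45, 0.13 to 0.76). In cluster 8 the gap lay in few cells: a UMI of *Ifitm3* was present in 13.3% and 17.9% of cells, with 68 UMIs in 40 cells of the WT-labelled library and 229 UMIs in 43 cells of the KO-labelled library, where 5 cells held 143 of them and 1 cell held 39. In cluster 4, by contrast, the shares were 12.7% and 28.7%. Without the 5 cells of each library and cluster with most *Ifitm3* UMIs, a step chosen after seeing the data, the log2 ratio was 1.25 in cluster 8, 0.46 (-0.28 to 1.15) in cluster 9 and 2.24 in cluster 4. The KO-labelled library was then higher in 11 of the 11 clusters that gave a ratio, past counting error in 8 and past 1.5-fold in 6. Here too 5 cells were a larger share of the smaller library, as in cluster 9 with 364 WT-labelled and 122 KO-labelled cells. After thinning to 1000 UMIs the KO-labelled library was still higher in 12 of 12 clusters (past counting error in 9), and between cells matched on total UMIs also in 12 of 12 (past counting error in 11). With depth matched and clusters given equal weight, a combination chosen after seeing the data, the ratio was log2 0.84.

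*Ifitm2*, 53598 bases from *Ifitm3*, was high in every cluster, from 869 CPM in cluster 8 to 2500 CPM in cluster 10 over both libraries, a 2.88-fold span. Its range was 819.8 CPM (cluster 6) to 2545 CPM (cluster 11) in the WT-labelled library and 875 CPM (cluster 9) to 2539 CPM (cluster 10) in the KO-labelled library. Its ratio between libraries had no common direction. The library labelled KO was higher past counting error in 5 clusters, as in cluster 1 (865 and 1320 CPM, log2 0.61, 0.48 to 0.74), and lower past counting error in 4, as in cluster 11 (2545 and 1608 CPM, log2 -0.66, -0.93 to -0.40). The near-equal totals of *Ifitm2* thus summed clusters that differed in both directions.

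**Figure D2:**
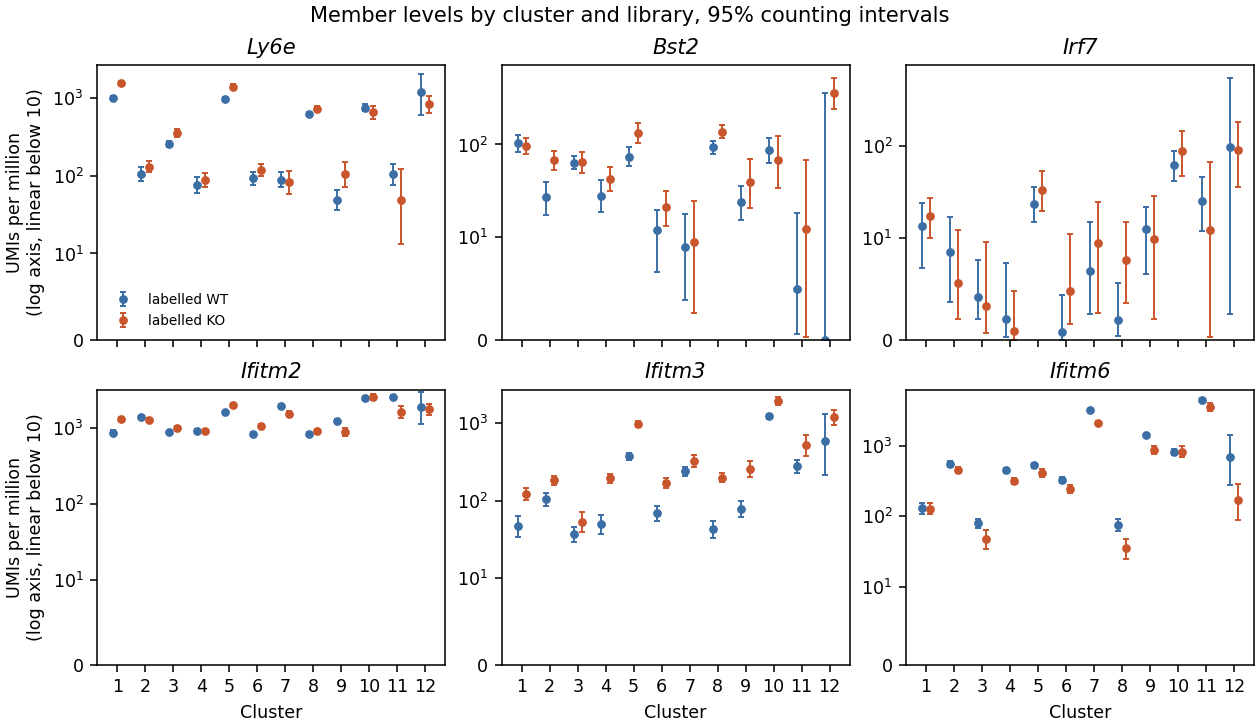
Levels of 6 members in CPM (log axis, linear below 10) in each of the 12 clusters, for the WT-labelled library (blue) and the KO-labelled library (orange), with 95% counting intervals. *Ifitm3* is higher in the KO-labelled library in all 12 clusters and *Ifitm6* lower in all 12, whereas *Ifitm2* shifts in both directions.

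*Ly6e* separated the clusters in another way. Over both libraries it was highest in cluster 1, at 998 CPM in the WT-labelled library and 1584 CPM in the KO-labelled library (log2 0.67, 0.55 to 0.79), and was itself one of that cluster's leading genes although it was kept out of the clustering. In the WT-labelled library alone cluster 12, with 7 cells, stood at 1182 CPM. Cluster 9 was lowest over both libraries and in the WT-labelled library, at 49.0 CPM, but in the KO-labelled library it was at 106 CPM and cluster 11 was lowest, at 48.4 CPM from 4 UMIs. The library labelled KO was higher past counting error in 5 of 12 clusters and lower past it in 0. A UMI of *Ly6e* was present in 77.8% and 78.7% of cells of cluster 1, at medians of 2500 and 1413 UMIs per cell, and in 10.96% and 8.33% of cells of cluster 11, at medians of 1665 and 1537. No cluster can be taken to lack *Ly6e*, and the level of free RNA was not measured.

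*Bst2* was highest in cluster 12, at 318 CPM over both libraries, and lowest in cluster 11, at 6.21 CPM. All 28 of its UMIs in cluster 12 came from the KO-labelled library, which also held nearly all cells of that cluster. Of 10 clusters with 20 or more *Bst2* UMIs, the KO-labelled library was higher past counting error in 3, with the widest gap in cluster 2 (26.9 and 68.1 CPM, log2 1.34, 0.67 to 2.06). *Bst2* is also a surface marker of plasmacytoid dendritic cells, the cells that release most interferon. Of 8 other markers of these cells 6 had UMIs in the WT-labelled library and 7 in the KO-labelled library. Their sum was 62.9 and 67.7 CPM, and *Ccr9* was at 0 in both. *Siglech* had 1 and 5 UMIs, and *Ly6d* had 1 and 32 (log2 5.56, 2.98 to 10.9). By cluster this list was at 556.5 CPM in cluster 12, where *Bst2* was highest, and at 29.6 to 111.5 CPM in the others. The part of the conventional dendritic list in the *Bst2* and *Ifitm3* differences was examined only by leaving out cluster 12, a step chosen after seeing the data, which gave log2 0.46 for *Bst2* and 0.80 for *Ifitm3*.

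*Irf7* was highest in clusters 10 and 12, in which *Ifitm3* was also high. It reached 61.8 CPM in the WT-labelled library (29 UMIs) and 87.3 CPM in the KO-labelled library (14 UMIs) in cluster 10. In cluster 12 it was at 98.5 CPM (2.49 to 549, from 1 UMI) and 89.9 CPM (36.1 to 185, from 7 UMIs). Cluster 4 was at 2.08 and 0.856 CPM, from 2 UMIs and 1 UMI. In the 3 clusters with 20 or more *Irf7* UMIs the log2 ratio lay between 0.34 and 0.50, with no interval past equal levels. *Isg15* was spread more evenly, from 3.67 CPM in cluster 8 to 24.8 CPM in cluster 2 over both libraries. In cluster 2, 1 cell held 11 of the 31 *Isg15* UMIs of the KO-labelled library. The libraries taken alone put other clusters first, cluster 11 in the WT-labelled library (22.5 CPM, from 9 UMIs) and cluster 10 in the KO-labelled library (43.7 CPM, from 7 UMIs). In the 3 clusters with 20 or more *Isg15* UMIs its log2 ratio ran from -0.86 to 0.78, and no interval excluded equal levels.

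**Figure D3:**
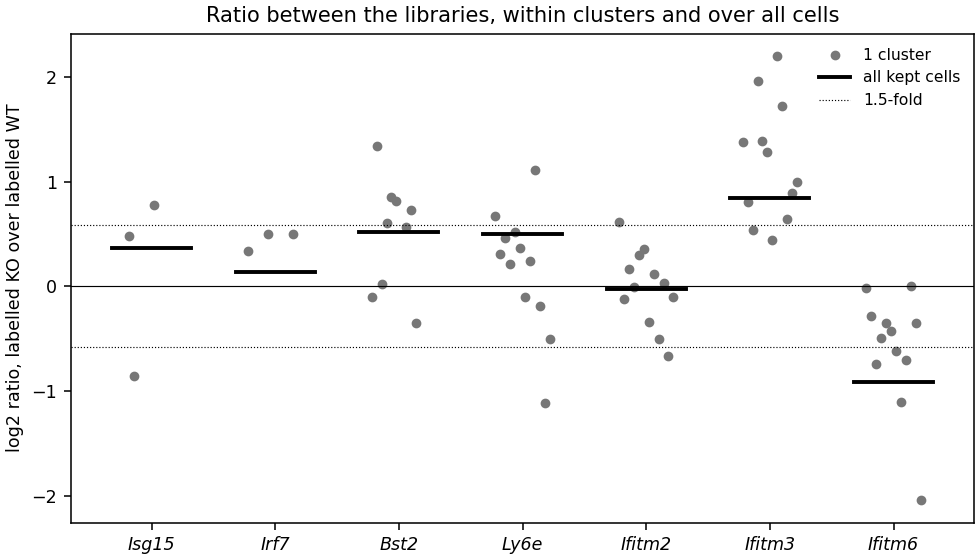
log2 ratio of the KO-labelled library over the WT-labelled library for the 7 members with 50 or more UMIs. Each grey point is 1 cluster with 20 or more UMIs of the gene, the black bar is the ratio over all kept cells and the dotted lines mark 1.5-fold. Cluster 12 of *Bst2*, with 0 UMIs in the WT-labelled library and 28 in the KO-labelled library, has no finite ratio and is not drawn. All *Ifitm3* points lie above 0 and all *Ifitm6* points below it, from 0.45 to 2.20 and from -2.05 to just below 0.

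Over the 24 sums of 12 clusters in 2 libraries, the pattern of *Irf7* was most like that of *Ifitm3* among the members (Pearson r = 0.81 on log2(CPM + 10)), followed by *Ifitm2* (0.77). *Ifitm2* and *Ifitm3* had r = 0.80. *Bst2* and *Ifitm6* were the most opposed pair at r = -0.66. Among 2732 other genes detected in 10% or more of cells, *Ly6e* was most like *Pkib* (0.97), *Ly86* (0.96) and *Ctsz* (0.95), and *Irf7* most like *Shisa5* (0.94), *Fxyd5* (0.93) and *Laptm4a* (0.92). *Ifitm6* was most like *Glipr2*, *Gadd45g* and *Cd300lf* (0.93 each), *Ifitm3* like *Card19* (0.93), *Sap30* (0.92) and *Capzb* (0.86), and *Ifitm2* like *Junb* (0.88), *Lsp1* (0.87) and *Ier5* (0.87). *Bst2* was most like *2700060E02Rik* (0.89), *Slc25a4* (0.88) and *Itm2c* (0.88), and *Isg15* like *Serf2* (0.78), *Cd14* (0.66) and *Phyh* (0.65). *Ifit1* (highest with *Gm10116*, 0.56) and *Ifit3* (highest with *Capza2*, 0.72) had too few UMIs for a pattern. The 24 points share 2 libraries and 1 clustering, so these correlations are descriptions. Each point had equal weight, also where it held few UMIs, as *Irf7* did in cluster 12 of the WT-labelled library with 1 UMI.

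The share of cells with a UMI was compared after each cell had been thinned to 1000 UMIs, which left 3800 and 3351 cells. *Ifitm3* was then present in 13.1% of cells (12.0 to 14.2%) of the WT-labelled library and 17.8% (16.5 to 19.1%) of the KO-labelled library. *Ifitm6* was present in 37.7% (36.1 to 39.3%) and 23.99% (22.6 to 25.5%), and *Ly6e* in 23.6% (22.2 to 25.0%) and 27.8% (26.3 to 29.4%). *Ifitm2* was present in 63.6% and 63.8%, with intervals that overlapped. They overlapped also for *Bst2* (4.16% and 5.22%), *Isg15* (0.816% and 1.04%) and *Irf7* (1.24% and 1.25%). Without thinning, the shares were 22.6% and 26.2% for *Ifitm3*, 52.6% and 32.5% for *Ifitm6*, 40.2% and 39.6% for *Ly6e* and 11.5% and 10.8% for *Bst2*; the last 2 pairs run against the CPM and give no order.

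Spread between cells was summarised by the coefficient of variation (CV, SD over mean). At own depth and 10000 UMIs per cell the CV of *Ifitm6* was 1.87 in the WT-labelled library and 2.43 in the KO-labelled library, and that of *Bst2* 3.94 and 5.01. *Ifitm2* had the lowest CV of the members, 1.06 and 1.03. The median log2 CV ratio over the 7 members was 0.06, against 0.25 over all genes tested. After thinning it was -0.11 over the members, with 3 higher and 4 lower in the KO-labelled library, and 0.05 over all genes. *Ifitm6* kept a higher CV in the KO-labelled library (1.96 and 2.53), at a lower mean. The Fano factor (variance over mean) after thinning was higher in the KO-labelled library for 5 of the 7 members and lower for 2. Its median log2 ratio was 0.10 over the members and 0.07 over all genes. For *Ifitm6* it was 4.04 and 3.22, opposite in direction to the CV, and for *Bst2* 1.39 and 2.29. At own depth the 10 cells with most *Bst2* UMIs held 7.97% of them in the WT-labelled library and 14.4% in the other, where 1 cell had 28. After thinning, the 1% of cells with most *Bst2* UMIs held 35.8% and 37.9% of them.

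*Ifit1*, *Ifit3* and *Isg15* were found in few cells. *Ifit1* had its 13 UMIs in 6 of 3545 cells (0.169%, 0.0621 to 0.368%) of the KO-labelled library, and 1 cell held 7 of them together with 11 UMIs of *Isg15* and none of *Ifit3* or *Irf7*. *Ifit3* was present in 2 cells of the WT-labelled library and 3 cells of the KO-labelled library, and 1 of the latter held 4 of the 6 UMIs. At least 1 of *Isg15*, *Ifit1*, *Ifit3* and *Irf7* had a UMI in 4.58% of cells of the WT-labelled library and 3.84% of the KO-labelled library, and 7 and 8 cells had at least 2 of the 4. After thinning the shares were 2.00% and 2.36%.

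*Ifitm2*, *Ifitm6* and *Ly6e* were the members found in most cells. At 1000 UMIs a cell held on average 1.44 members in the WT-labelled library and 1.41 in the KO-labelled library, and 18.5% and 19.1% of cells held none. Across thinned cells of 1 library, ln(1 + scaled count) of *Ifitm2* and *Ifitm6* correlated with r = 0.23 in the WT-labelled library and 0.11 in the KO-labelled library. *Ifitm2* and *Ifitm3* had r = 0.19 and 0.17, *Ifitm3* and *Ifitm6* 0.16 and 0.16, and *Ly6e* and *Ifitm6* -0.12 and -0.12. These cells share depth and library, and such weak correlations in sparse counts are given as values only. At own depth, 2 cells, 1 in each library, held 8 of the 9 members, while no cell of either library had 7 and the next highest held 6. Both lay in cluster 10. The cell of the KO-labelled library (1753 UMIs in all) held 2 UMIs of *Ifit1*, 4 of *Ifit3*, 4 of *Irf7*, 8 of *Ifitm3* and none of *Isg15*. The cell of the WT-labelled library (2023 UMIs) held 1 of *Ifit3*, 4 of *Irf7*, 3 of *Ifitm3*, 2 of *Isg15* and none of *Ifit1*. Of 151 other genes of the interferon lists they held UMIs of 35 and 34. The median in cluster 10 was 6 in both libraries, and the next highest cells of that cluster had 14 and 16. Cells of other clusters were not compared in this way.

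**Figure D4:**
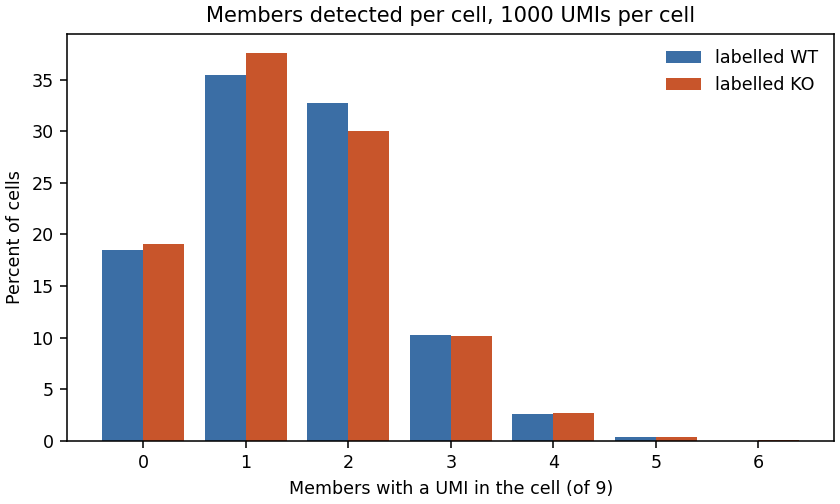
Percent of cells (vertical axis) with UMIs of 0 to 6 of the 9 members (horizontal axis) after thinning to 1000 UMIs per cell, for the WT-labelled library (blue) and the KO-labelled library (orange). The bars of the libraries have similar heights, with 18.5% and 19.1% of cells at 0 members. The axis ends at 6 members, so the cells with 8 members are not drawn.

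The wider pathway was described with 13 lists of 163 genes in all. Of 160 found by a single symbol, 133 had a UMI and 91 had 50 or more. Of these 91, 15 (16.5%) were 1.5-fold or more higher in the KO-labelled library and 11 (12.1%) lower, beside the 6.79% and 11.8% of all genes given above, and the median log2 ratio was 0.06. Of the 21 interferon ligand genes 1 had a UMI: the *Ifna* genes, *Ifnb1* and *Ifng* were at 0 in both libraries, a limit of 0.257 and 0.379 CPM each. The exception was *Ifnz*, with 1 UMI in the WT-labelled library and 2 in the KO-labelled library. Transcripts of the other ligands were not detectable at this depth.

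In the sensors and adaptors, 1 of 11 tested genes was past the fold upwards and 1 downwards. *Tlr7*, a sensor of single-stranded RNA, had 44 UMIs in the WT-labelled library and 10 in the KO-labelled library (log2 -1.58, -2.73 to -0.57), and *Ddx58* (RIG-I) had 31 and 39 (log2 0.89, 0.17 to 1.62). *Ifih1*, which encodes the pIpC sensor Mda5, had 84 and 44 (log2 -0.37, -0.93 to 0.17), and *Ticam1*, the adaptor of Tlr3, 40 and 21 (log2 -0.37, -1.21 to 0.43). *Tlr3* itself had 0 UMIs in both libraries. Receptors and JAK-STAT genes held 0 higher and 1 lower of 11, *Jak2* (log2 -0.75, -1.38 to -0.15). *Ifnar1*, a chain of the type I receptor, had a log2 ratio of 0.51 (0.18 to 0.85), *Ifngr2* one of -0.35 (-0.54 to -0.18) and *Stat2* one of -0.36 (-1.27 to 0.51). In the IRF family 1 of 7 was past the fold, *Irf8*, a regulator of monocyte and dendritic fate, at 171 CPM in the WT-labelled library and 104 CPM in the KO-labelled library (log2 -0.72, -0.84 to -0.60). *Irf1* (log2 -0.50, -0.90 to -0.10) and *Irf5* (-0.29, -0.50 to -0.09) were lower by more than counting error but within the fold, and *Irf9* had a ratio of 0.11 (-0.28 to 0.50).

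Among the 5 tested genes of ISG15 conjugation, *Ube2l6*, the conjugating enzyme, was at 9.34 and 24.5 CPM (log2 1.39, 1.05 to 1.74), higher in the KO-labelled library in 8 of the 9 clusters with 10 or more UMIs. *Trim25* was lower (log2 -0.86, -1.73 to -0.05), and *Uba7*, the activating enzyme, had a ratio of 0.21 (-0.06 to 0.49). The other tested genes of the IFITM family, *Ifitm1* (log2 -0.14, -0.44 to 0.15) and *Ifitm10* (-0.24, -0.98 to 0.47), did not differ beyond counting error. None of the 6 *Ifit* genes reached 50 UMIs. In the Ly6 family none of 5 passed the fold, and *Ly6c2*, a monocyte surface gene, was at 1070 and 898 CPM. Of 9 antiviral effectors 2 were past the fold upwards, *Isg20* (log2 0.86, 0.44 to 1.28) and *Zbp1* (0.63, 0.16 to 1.11), and 2 downwards, among them the RNA-editing gene *Adar* (-1.03, -1.94 to -0.18).

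The IFI200 family of DNA sensors had the largest share past the fold upwards, 3 of 5 tested. *Mndal* was at 4.03 CPM in the WT-labelled library and 24.6 CPM in the KO-labelled library (log2 2.61, 2.15 to 3.10), higher in 6 of 6 clusters with 10 or more UMIs, *Ifi203* had a log2 ratio of 1.95 and *Ifi204* one of 1.17. *Aim2* was lower (-0.77, -1.29 to -0.28). Reads may be split between these paralogs where their sequences are alike, which was not examined. Among 5 tested GTPases *Ifi47* was past the fold upwards (0.64) and *Gbp7* downwards (-0.99), with *Igtp* at 0.43 and *Irgm1* at 0.36. Of 24 other interferon-stimulated genes 4 were past the fold upwards, led by *Ifi27l2a* (1.58) and *Lgals3bp* (1.51), and 2 downwards. The latter were *Samd9l*, which had 179 UMIs in the WT-labelled library and 17 in the KO-labelled library (log2 -2.84, -3.65 to -2.12) and was lower in 8 of 8 clusters, and the chemokine *Cxcl10* (-1.28, -2.34 to -0.33). Of 5 inhibitors of the pathway 2 were higher, *Socs1* (0.95, 0.60 to 1.31) and *Socs3* (0.63, 0.25 to 1.02), and *Pias1* (0.52) and *Ptpn6* (-0.34) stayed within the fold.

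**Figure D5:**
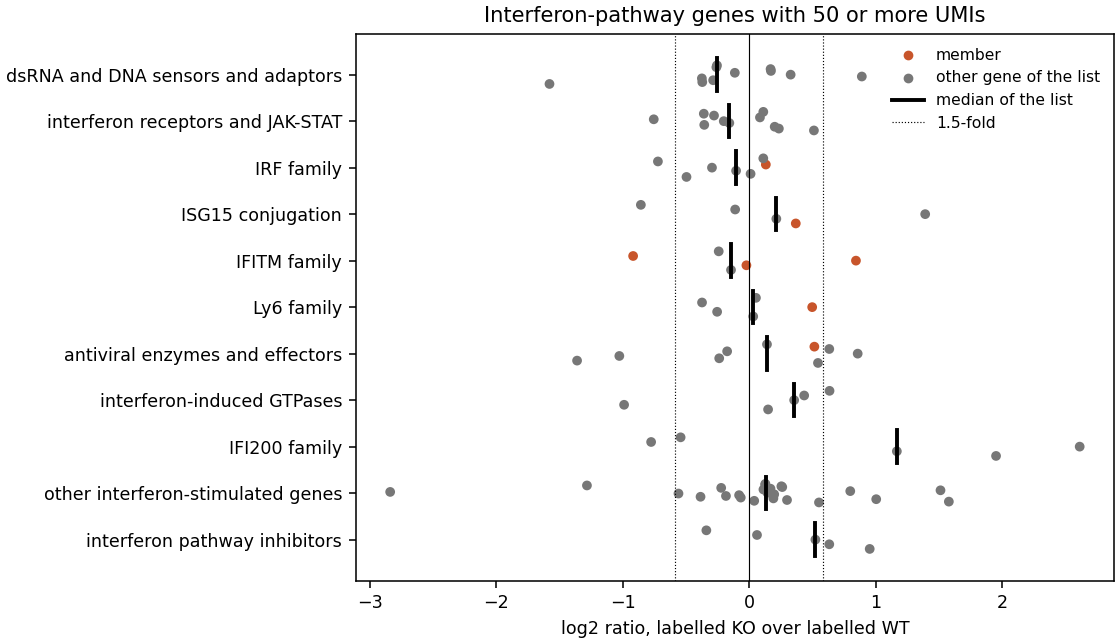
log2 ratio of the KO-labelled library over the WT-labelled library (horizontal axis) for interferon-pathway genes with 50 or more UMIs, by list (vertical axis); orange points are members of the 9, grey points other genes, black bars medians and dotted lines 1.5-fold. Genes of most lists lie on both sides of 0, from -2.84 (*Samd9l*) to 2.61 (*Mndal*).

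Some members share sequence with other genes. Of the 351 stretches of 50 bases in the last 400 bases of the longest coding transcript, 19.1% in *Ifit3* were also in *Ifit3b*, which had 0 UMIs, 12.3% in *Ifitm3* were in *Ifitm1* or a predicted gene, and 25.4% in *Ifitm2* were in predicted genes, 1 of which overlaps it on the same strand. *Isg15* shared 0.855%, and *Ifit1*, *Irf7*, *Bst2*, *Ly6e* and *Ifitm6* shared none. Levels of the first 3 are therefore uncertain to the extent that such reads were dropped or split.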

How the data were processed

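Single-cell 3′ RNA-seq was analysed from 2 libraries, 1 per genotype. The authors deposited 1 matrix of raw UMI counts per gene and cell, made with Cell Ranger, for which the submitters' processing notes name version 1.3.1 and the mm10 build. The library of a cell comes from the number ending its deposited barcode, taken with the study's analysis code, since the labels do not pair numbers with genotypes. There were 0 columns of other samples.

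The analysis used the 7411 of 8309 cells in which at least 500 genes were detected. Doublets were kept; leaving out the 5% of cells with most UMIs was an alternative. UMIs were summed per library, divided by total UMIs (CPM), and given exact Poisson intervals; ratios have conditional binomial and shares Clopper-Pearson intervals, all at 95% and covering counting error only. A limit for 0 UMIs is 3 counts. Ratios between libraries used genes with 50 or more UMIs. No test was possible with 1 library per genotype, so no p-value is given.

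For equal depth, cells were thinned to 1000 UMIs without replacement, leaving out 66 and 194 kept cells. Clusters came from k-means (12 clusters, 10 starts, scikit-learn 1.9.0) on 20 principal components of 500 variable genes, without interferon-list and sex-linked genes and *Kat2a*. Ratios within clusters are given where both libraries together had 20 or more UMIs. Ratios and thinning were checked on simulated counts. Members and lists were chosen with earlier results of these data known. From each list the members and up to 4 further genes with the largest log2 ratio among those with 50 or more UMIs are named; likeness names the 3 genes of highest correlation per member. 1 gene that this rule names is not reported here. Promoters are RefSeq's, and positions GENCODE M21's.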

Additional observations from a re-analysis of the deposited data

Results flagged for a closer look

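Cells below 500 detected genes, 203 in the WT-labelled library and 695 in the KO-labelled library, took no part in the comparisons above. In them *Ifitm3* was at 161 CPM (113 to 223) in the WT-labelled and 772.7 CPM (707 to 843) in the KO-labelled library, and *Ly6e* at 71.7 CPM (41.0 to 117) and 290.2 CPM (251 to 334), so that both lay above the WT-labelled level by more than counting error. By the interval of the ratio, *Bst2* in the same cells was also higher, from 2 and 30 UMIs (log2 2.33, 0.35 to 5.44). *Ifitm6* was lower, at 4254 and 2243 CPM (log2 -0.92, -1.04 to -0.80). *Ifitm2*, at 1788 and 1866 CPM, did not differ beyond counting error (log2 0.06, -0.10 to 0.23).

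The ratio of *Ifitm2* between the libraries took opposite directions in different clusters, from log2 0.61 in cluster 1 to -0.66 in cluster 11, with both intervals past equal levels. The difference between clusters was not tested, since each cluster has 1 library per genotype.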

How the results depend on the processing

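No paired analysis was possible because each genotype had a single library. Each of the 7 member ratios was recomputed under 14 alternatives; no value past the fold changed sign, and a value is given below where it left the counting interval of the reported one (for medians, where it moved by 0.1 or more). The cause of each shift was not tested. The combinations of depth with cluster weights, leaving out cluster 12 and leaving out shared barcodes were chosen after seeing the data. With every deposited cell the log2 ratios were 1.03 for *Ifitm3*, -0.59 for *Ifitm6* and 0.028 for *Ifitm2*. With cells of 1000 or more genes they were 0.99, -1.08 and 0.018, with 0.32 for *Ly6e* and a members' median of 0.17. Thinning to 1000 UMIs gave 0.57 for *Ifitm3*, -1.06 for *Ifitm6* and -0.12 for *Ifitm2*, 0 members past the fold upwards and a median log2 CV ratio of -0.11. Thinning to 1500 UMIs gave 0.57, -1.15 and -0.17, with -0.41 for *Irf7*, 0.29 for *Ly6e*, 0 members past the fold upwards, and medians of 0.15 for the members and -0.082 for the lists. Cells matched on total UMIs gave 0.21 for *Ifitm3*, -1.50 for *Ifitm6*, -0.28 for *Ifitm2*, -0.61 for *Irf7* and 0.33 for *Ly6e*, with 0 members past the fold upwards, 2 downwards, and medians of 0.21 for the members and -0.050 for the lists. Clusters of equal weight gave 1.02 for *Ifitm3*, -0.47 for *Ifitm6*, 0.031 for *Ifitm2* and 0.43 for *Ly6e*, with 0 members past the fold downwards. Thinning to 1000 UMIs together with equal weights gave 1.03 for *Ifitm3* and -0.46 for *Ifitm6*, with 0 members downwards. Matched cells together with equal weights gave -0.56 for *Ifitm6*, -0.074 for *Ifitm2* and 0.37 for *Ly6e*, with 2 members upwards (*Ifitm3* at 0.84 and *Isg15* at 0.74) and 0 downwards. A median-of-ratios size factor, which shifts all log2 ratios by 0.07, gave -0.99 for *Ifitm6*, -0.10 for *Ifitm2* and 0.42 for *Ly6e*. The mean over cells of scaled counts gave 0.59 for *Ifitm3*, -1.06 for *Ifitm6*, -0.089 for *Ifitm2* and 0.64 for *Ly6e*, with 3 members upwards and a members' median of 0.50. Without the 5% of cells with most UMIs the members' median was 0.47. At 2-fold, 0 members were higher and 0 lower, beside 1.91% and 4.17% of all genes; among genes detected in 10% of cells 3.54% and 3.43% passed 1.5-fold. Leaving out the 10 cells with most UMIs of a gene, cluster 12 or the shared barcodes kept every member ratio inside its counting interval. In the ratios of *Ifitm3* and *Ifitm6* within clusters, leaving out the 5 cells with most UMIs of the gene lost the *Ifitm3* difference beyond counting error in clusters 3, 9 and 11. In these clusters 5 cells were a larger share of the KO-labelled library, as in cluster 11 with 219 WT-labelled and 48 KO-labelled cells. In cluster 1, with 346 and 629 cells, the same step moved the *Ifitm3* log2 ratio from 1.38 to 2.16. The step therefore did not treat the libraries alike. Depth limits *Ifit3* (2 and 6 UMIs), *Ifit1* in the WT-labelled library (0 UMIs) and the ligands (at most 2 UMIs in a library).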

Other observations

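Genes with fewer than 50 UMIs were left out of the ratios, and some of them stood apart; they are named here after their values were seen. *Usp18*, the protease that removes Isg15 from its targets, had 4 UMIs in 4 cells of the WT-labelled library and 33 UMIs in 26 cells of the KO-labelled library (log2 3.604, 2.11 to 5.56). *Mnda*, of the IFI200 family, had 3 UMIs in 2 cells and 44 UMIs in 38 cells (log2 4.43, 2.79 to 6.77). *Rsad2* (viperin) had 0 UMIs and 6 UMIs in 4 cells, and *Ifit2* had 10 and 16 UMIs in 9 and 13 cells. No cell held more than 5 UMIs of any of these. Other interferon-list genes under the same limit were lower in the KO-labelled library. Among them, *Oas1c* had 36 UMIs in the WT-labelled library and 13 in the KO-labelled library, *Ifnlr1* 15 and 5, *Ly6i* 10 and 3, and *Mx1* 7 and 2. For each of the latter genes the log2 interval included equal levels.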
